A study of Drosophila melanogaster with 12 samples.

Results

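*ISWI* mutant males were compared with control males, 3 libraries against 3, which are 6 of the 12 libraries of the study. All rows of the deposited table that could be tested in males were used, sorted by the kind of name they carry and by how abundant they were. The study asked about long non-coding RNAs, their possible interactors and transposable elements in *ISWI* mutant *Drosophila*, and it also stained RNA in embryos. For sequencing it used ribosomal RNA-depleted total RNA of whole larvae of both sexes at the third instar. The control males were wild type (+/+). The mutant males were ISWI1/ISWI2, larvae that carry a different mutant allele of *ISWI* on each copy of chromosome 2. They came from crosses of yw; ISWI1/CyO·GFP with yw; ISWI2/CyO·GFP flies and were picked as the larvae without GFP. The mutants therefore share the *yw* markers of their parents and the controls do not, so strain and *ISWI* genotype change together and cannot be told apart. Each library pooled about 20 larvae. Control and mutant females, with 3 libraries each, were used only where stated.

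ISWI is the ATPase motor of several chromatin remodeling complexes of the fly, among them NURF, ACF and CHRAC, which slide nucleosomes along DNA and space them evenly. In *ISWI* mutant larvae the polytene X chromosome of males is known to lose its compact form, which makes males of special interest. Transposable elements (TEs) are mobile DNA. LTR retrotransposons such as *copia* and *gypsy* and non-LTR retrotransposons such as *R1*, *R2* and *I* are copied through an RNA, whereas DNA transposons such as *hopper2* are cut out and reinserted. Their RNA is normally held low by small RNAs and by closed chromatin. A whole male larva also holds its testes, in which spermatocytes use many genes that other tissues leave silent.

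The values are read counts per transcript divided by the size factor of each library, called normalized counts here. The table had 41081 rows. FlyBase identifiers of annotated transcripts (known transcripts) named 31271 of them, 5969 were transcripts assembled by the authors at 2342 loci (assembled transcripts), 3840 were TE insertions of 153 families, and 1 was another feature. Whole reads could be recovered from the values. The control male libraries held between 90323500 and 110666955 reads and the mutant male libraries between 92223391 and 98799390. A row was tested when at least 3 of the 6 male libraries had a normalized count of 10 or more. This left 26162 known transcripts, 4561 assembled transcripts and 2017 TE insertions. The test was limma on log2(normalized count + 1), a scale that understates the change of rows with low counts, and a row is said to have risen or fallen in the mutant males when its Benjamini-Hochberg adjusted p was under 0.05 over all 32740 rows. Nothing in the labels says whether replicates came from separate cultures, so the p-values measure the spread between these libraries.

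Known transcripts are listed by identifier only. Of the 31271 identifiers, 27 could be tied to genes through RefSeq. *ISWI* itself and markers of the larval tissues were not among them, so neither the targeted gene nor the tissue could be checked against the labels. Coding and non-coding transcripts were not separated here.

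The male libraries differed in how much RNA they held from transcripts limited to males, and why they differed was not tested. Transcripts limited to males were taken from the control libraries alone, as those that reached a normalized count of 50 in every control male and stayed at 3 reads or fewer in every control female. There were 1173 of them, of which 1079 were known transcripts, 93 were assembled transcripts and 1 was a TE insertion. Their summed normalized count was 833378, 1028940 and 797637 in control males 1, 2 and 3. It was 121502 in mutant male 1, 333281 in mutant male 2 and 100579 in mutant male 3. All mutant males lay below all control males, at 13.7%, 37.6% and 11.3% of the control male mean, and mutant male 2 lay apart from the others. In the mutant females the same sum was between 1.67% and 2.80% of the control male mean. In bulk samples, fewer cells of a type and less RNA per cell cannot be told apart.

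Mutant male 2 was the highest of the mutant males in 1008 (85.9%) of the male-limited transcripts, and in 109 of them it lay within the control male range. The median log2 ratio to the control male mean was -3.78 in mutant male 1, -1.59 in mutant male 2 and -4.27 in mutant male 3. With every value under 3 reads set to 3 reads, these medians were -3.84, -1.59 and -4.28. At most 3 reads were seen for 340 of the 1173 transcripts in mutant male 1, for 51 in mutant male 2 and for 394 in mutant male 3. The most abundant of the list in the control males was the known transcript FBtr0076286, with 4162, 16833 and 12455 in the control males and 1883, 5664 and 71.9 in the mutant males. The next was FBtr0081028, with 9666, 10162 and 10252 in the control males and 1281, 3148 and 1011 in the mutant males. The most abundant assembled transcript, MSTRG.8404.12, had 6801, 11148 and 4900 in the control males and 0, 3273 and 404 in the mutant males. In all 3, mutant male 2 was the highest of the mutant males, and in FBtr0076286 it lay above control male 1.

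**Figure D1:**
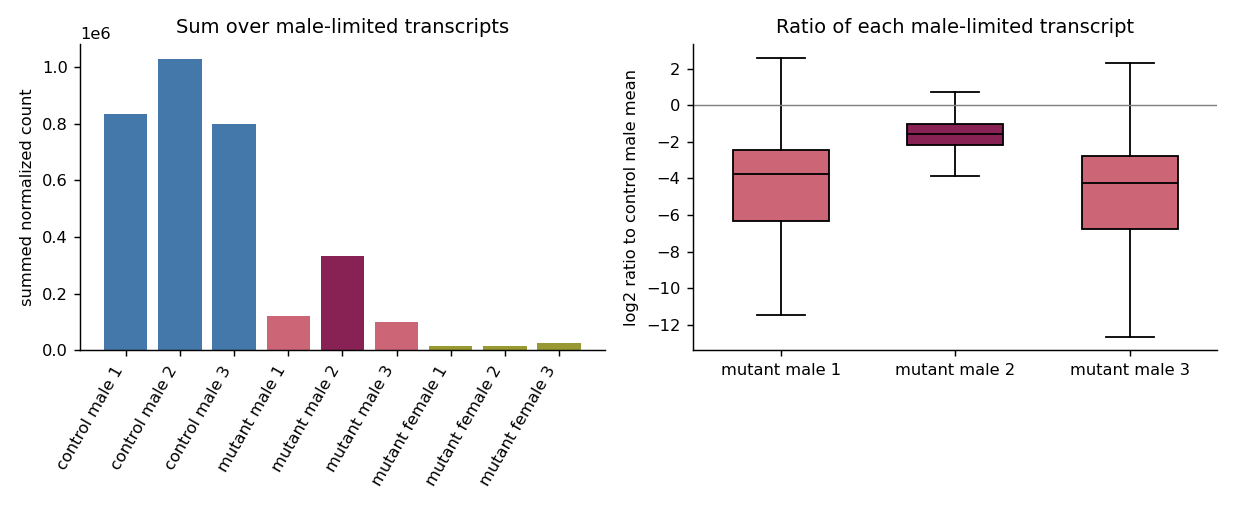
Left, normalized counts summed over the 1173 transcripts that the control libraries show as male-limited, 1 bar per library. Right, log2 ratio of each of these transcripts to the control male mean in each mutant male library (line, median; box, quartiles; whiskers, furthest value within 1.5 box lengths); the sum was 333281 in mutant male 2 and 121502 and 100579 in the other mutant males.

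Transcripts limited to females, taken in the reverse way, were few. The 25 such transcripts summed to between 10609 and 10993 in the control females and to between 3.14 and 6.27 in the control males. In mutant males 1, 2 and 3 the sum was 2305, 6521 and 3989, and in the mutant females it was between 5029 and 8334. RNA of transcripts that were near absent in control males was thus present in all 3 mutant male libraries, most of it in mutant male 2. Only 5 of the 25 passed the filter on low counts, and since control males were near 0 by choice, those could pass only through the mutant libraries. The share of rows without a read also set mutant male 2 apart from the other mutant males, with 8.46% against 15.5% and 16.1%. Control male 2 was likewise the lowest of its group, with 9.32% against 13.0% and 16.3%, so a low share was not particular to mutant male 2.

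Over all classes, 3368 rows (10.3%) changed in the mutant males, of which 1461 (4.46%) rose and 1907 (5.82%) fell. Among 26162 known transcripts there were 1588 fallers and 871 risers, a balance that turned when any 1 control male was left out, to 252 fallers and 356 risers without control male 1, 361 and 533 without control male 2, and 336 and 495 without control male 3. Among 4561 assembled transcripts there were 395 risers and 289 fallers, which turned to 349 risers and 420 fallers without mutant male 2. TE insertions mostly rose, with 195 risers and 30 fallers among 2017, and risers outnumbered fallers without each of the 6 libraries. The number of their fallers was 61 without mutant male 2, 7 without mutant male 1 or 3, and 2, 4 and 4 without control males 1, 2 and 3. The share that changed was 9.40% of the known transcripts, 15.0% of the assembled transcripts and 11.2% of the TE insertions. The median log2 fold change was -0.18 for known transcripts, 0.09 for assembled transcripts and 0.37 for TE insertions, beside -0.12 over all rows. The TE median rested on single libraries. It was 0.30, 0.87 and 0.09 in mutant males 1, 2 and 3 taken singly, and it was 0.17 without mutant male 2 and 0.16 without control male 3. The median of assembled transcripts was 0.02 without mutant male 2 and -0.07 without control male 3. TMM normalization moved the median of all rows by 0.13, to 0.00, so the class medians are best read against that of all rows.

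All 3 mutant males lay above all 3 control males in 4895 rows, 15% of all rows, and below them in 6869 rows, 21%. Among TE insertions the shares were 29.2% above and 10.2% below. Among known transcripts they were 13.2% and 22.8%, the opposite order. Among assembled transcripts 18.8% lay above and 15.3% below. Some of the changes were between presence and near absence. Among the risers, 107 known transcripts, 192 assembled transcripts and 21 TE insertions had at most 3 reads in every control male. Among the fallers, 149 known transcripts, 173 assembled transcripts and 3 TE insertions had at most 3 reads in every mutant male. Such rows made up a far larger part of the changed assembled transcripts than of the changed known transcripts or TE insertions.

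**Figure D2:**
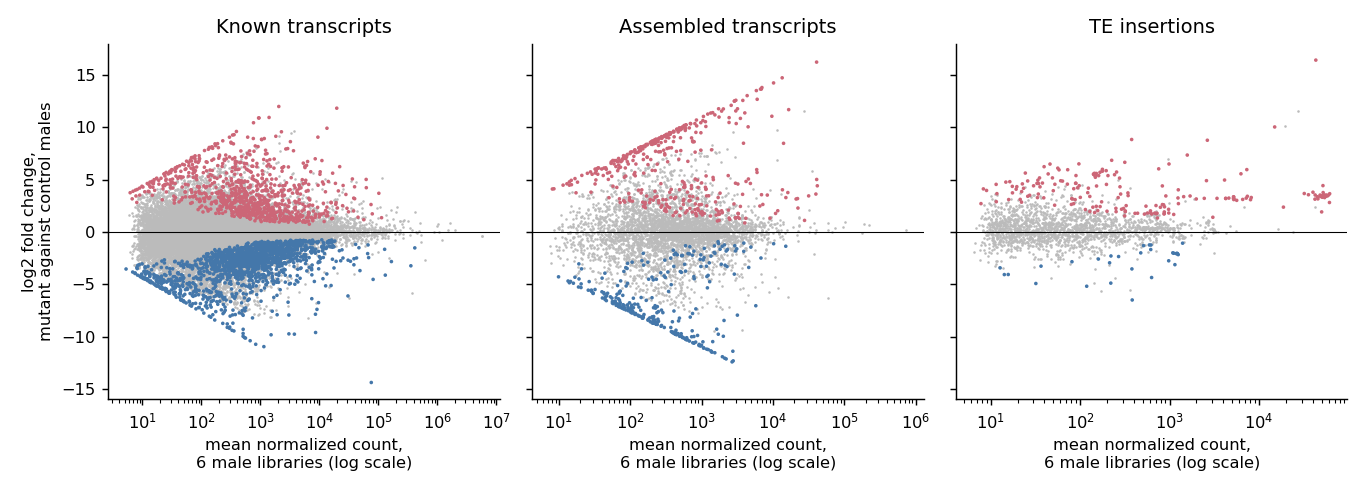
Log2 fold change of the mutant males against the control males (y axis, from log2(normalized count + 1)) against the mean normalized count over the 6 male libraries (x axis, log scale), 1 point per row and 1 panel per class; red points rose and blue points fell at an adjusted p under 0.05. The straight edges of the known and assembled clouds are rows at or near 0 in one group, and the 32 TE insertions that rose among those over 10000 form the cluster at the right of the last panel.

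These counts depended on which libraries were kept. Without mutant male 2, 4870 rows (14.9%) were called, of which 1360 (4.15%) rose and 3510 (10.7%) fell. Known transcripts that fell then numbered 3029 in place of 1588, and 1448 of the 1588 were among them. The risers changed little in number, and 1156 of the 1461 were shared. Leaving out another library lowered the number of known transcripts called from 2459 to 608 without control male 1, 894 without control male 2, 831 without control male 3, 676 without mutant male 1 and 859 without mutant male 3. For assembled transcripts the number fell from 684 to 435 without control male 1 and to 445 without mutant male 1. For TE insertions it fell from 225 to 101, 123 and 111 without control males 1, 2 and 3, and to 97 and 116 without mutant males 1 and 3.

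The male-limited transcripts made up a part of the fallers. Of the 1173, which were all tested, 356 (30.3%) fell, beside 5.82% of all rows, and 867 (73.9%) fell without mutant male 2. They were 18.7% of all fallers. The list was set by high values in the control males, so its counts are a description. With sex-limited rows left out of the fit, 803 known transcripts rose and 1128 fell, an alternative added after seeing the data. With only the rows kept whose control male and control female means differed by less than 1 on the log2 scale, also added after seeing the data, 547 known transcripts rose and 555 fell. The excess of fallers among known transcripts was then nearly gone, while TE insertions still had 142 risers and 24 fallers. This choice of rows used the control male values that also enter the test, so these counts too are a description.

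Changes were spread unevenly over expression levels, taken as the mean normalized count over the 6 male libraries. Among known transcripts 5.34% were called under 100, 10.1% between 100 and 1000, 12.4% between 1000 and 10000 and 13.2% over 10000. Fallers outnumbered risers at each of these levels, for instance 767 against 379 between 100 and 1000, and 64 against 50 over 10000. Known transcripts over 10000 had a median log2 fold change of 0.09, whereas the 3 lower levels had medians between -0.26 and -0.12. Known transcripts had a median SE of 0.94 on the log2 scale under 100 against 0.33 between 1000 and 10000. Assembled transcripts under 100 had one of 1.01, with 19.0% called. Why fewer scarce known transcripts were called was not tested.

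Assembled transcripts showed no such climb with level. The share called was 19.0% under 100, 14.2% between 100 and 1000, 13.2% between 1000 and 10000 and 26.0% over 10000. Over 10000 there were 77 of them, of which 18 rose and 2 fell. In TE insertions the share called climbed from 5.48% under 100 to 13.1%, 29.1% and 86.5% at the higher levels. Of the 37 insertions over 10000, 32 rose and 0 fell with limma. An unadjusted limma p under 0.05 was seen in 35 of the 37, beside 9236 of all 32740 rows. In 35 of the 37 all mutant males lay above all control males, beside 15% of all rows. These insertions were abundant because the mutant males had much of their RNA, so their level is not independent of the change. Nor are the insertions independent of each other, since copies of a family share sequence. The *copia* family alone had 28 risers among its 33 tested insertions, taken over all levels.

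**Figure D3:**
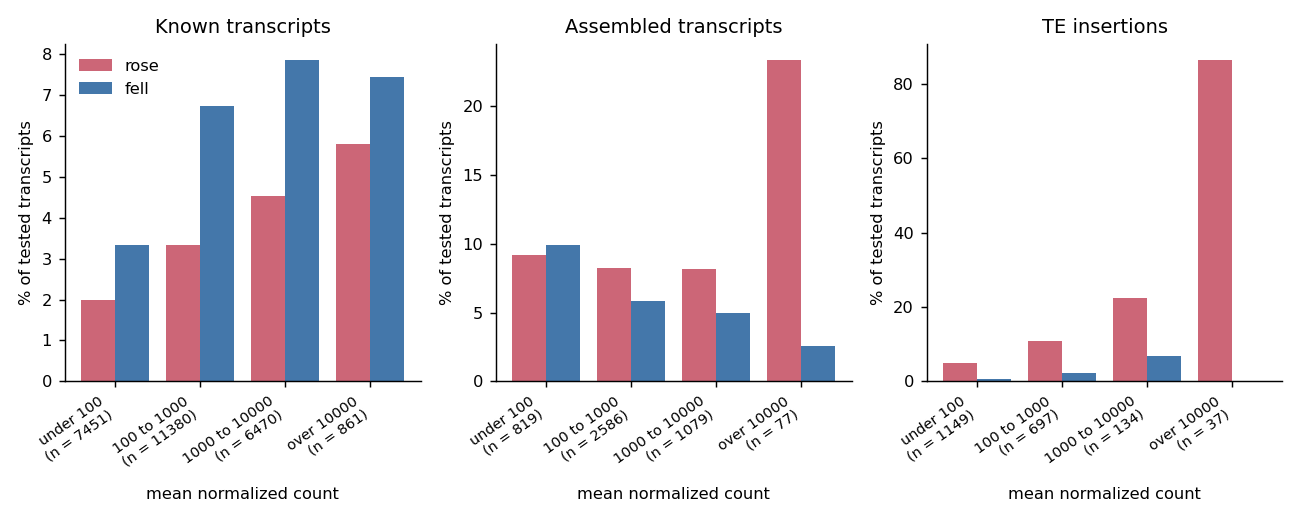
Percent of the tested rows of each class that rose (red) or fell (blue) in the mutant males, by mean normalized count over the 6 male libraries, with the number of tested rows under each level; the y axes of the panels differ. Fallers outnumber risers at each level of known transcripts, while 86.5% of the 37 TE insertions over 10000, which are not independent of each other, rose.

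The most abundant known transcripts that rose with no overlap between the groups were FBtr0082101, FBtr0339480, FBtr0072881 and FBtr0303384. No gene is given to these identifiers here. FBtr0303384 had normalized counts of 27368, 20590 and 16279 in the control males and of 122651, 146864 and 117501 in the mutant males. It was 6.02-fold higher, with a log2 fold change of 2.62 (SE 0.26, n = 3 per group, limma adjusted p = 0.0034). FBtr0339480 had 18581, 8538 and 15125 in the control males and 307377, 108404 and 154424 in the mutant males, a log2 fold change of 3.69 (SE 0.48, limma adjusted p = 0.0090). Its lowest mutant male, number 2, was still well above its highest control. FBtr0072881 and FBtr0082101 rose less, by 1.73 (SE 0.32, limma adjusted p = 0.029) and 1.36 (SE 0.29, limma adjusted p = 0.039) on the log2 scale. Neither of these smaller rises passed the threshold when any library other than mutant male 2 was left out, with adjusted p between 0.066 and 0.14.

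The most abundant known transcripts that fell were FBtr0333198, FBtr0076095, FBtr0343708 and FBtr0076160. FBtr0076095 had 756207, 478800 and 690800 in the control males and 51893, 104790 and 56545 in the mutant males. It was 9.03-fold lower, with a log2 fold change of -3.22 (SE 0.38, limma adjusted p = 0.0061). FBtr0076160 fell further, from 286719, 172679 and 278195 to 8607, 32125 and 9610, a log2 fold change of -4.11 (SE 0.56, limma adjusted p = 0.010). In both, mutant male 2 was the mutant library nearest to the controls. FBtr0343708 had a log2 fold change of -2.82 (SE 0.48, limma adjusted p = 0.022), and FBtr0333198, with 540476, 496117 and 822430 against 207251, 200399 and 226791, one of -1.52 (SE 0.31, limma adjusted p = 0.036). The call of FBtr0333198 was lost when any 1 of the 6 libraries was left out (adjusted p between 0.052 and 0.12) and in the fit of all 12 libraries (adjusted p = 0.48). FBtr0343708 lost its call without control male 1, control male 3 or mutant male 3 (adjusted p between 0.069 and 0.089), and FBtr0076160 without control male 1 (adjusted p = 0.050).

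Of the 27 known transcripts tied to genes, 2 rose and 0 fell, with 10.3% of all rows called. An unadjusted limma p under 0.05 was seen in 5 of the 27, beside 9236 of all 32740 rows. The transcript of *Pepck1*, the enzyme phosphoenolpyruvate carboxykinase of glucose synthesis, also tied to CG45087 (FBtr0086701), had 38182, 30960 and 35228 in the control males and 84659, 65356 and 85580 in the mutant males. Its log2 fold change was 1.17 (SE 0.22, limma adjusted p = 0.028). The transcript of *slender lobes* (*sle*, FBtr0082231), a gene needed for the form of the mushroom bodies of the brain, had 56.3, 7.54 and 38.8 in the control males and 3290, 772 and 3625 in the mutant males, a log2 fold change of 6.28 (SE 0.95, limma adjusted p = 0.015). The control females had between 900 and 2012 normalized counts of the *sle* transcript, so the control males were the low group of the study for it. Transcripts of *LanA*, a laminin subunit (log2 fold change 0.84, limma adjusted p = 0.077), *alpha-Spec*, a spectrin of the membrane skeleton (0.48, limma adjusted p = 0.26), *HDAC3*, a histone deacetylase (-0.34, limma adjusted p = 0.31), and *SuUR*, a chromatin protein of under-replicated DNA (0.18, limma adjusted p = 0.66), did not pass the test. Lists of 231 genes had been prepared, among them genes of the ISWI complexes, dosage compensation, TE silencing, histones, the proteasome, the ecdysone response and markers of testis, fat body and salivary gland. Only 2 of these genes could be tied to a transcript, the ubiquitin-activating enzyme *Uba1* (log2 fold change -0.68, limma adjusted p = 0.097) and the histone gene *His4r* (-0.35, limma adjusted p = 0.54), and neither passed the test.

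Assembled transcripts gave some of the largest changes. MSTRG.2811.10 had no read in any control male and normalized counts of 105134, 100514 and 39612 in the mutant males, at least 28991-fold higher against a floor of 3 reads per library (limma adjusted p = 0.00023). MSTRG.3525.2 rose from 2835, 2250 and 2207 to 93562, 89105 and 56041, a log2 fold change of 5.01 (SE 0.26, limma adjusted p = 0.00069). MSTRG.4713.2 rose from 3631, 3492 and 3985 to 103645, 62829 and 73371, a log2 fold change of 4.40 (SE 0.24, limma adjusted p = 0.00069). These 3 had little spread in the control males, and no mutant male came near them. MSTRG.17532.1, with a log2 fold change of 3.62 (SE 0.29, limma adjusted p = 0.0017), behaved likewise. In control females 1, 2 and 3, MSTRG.4713.2 had 174625, 8178 and 2082, so control female 1 lay above every mutant male.

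The abundant assembled transcripts that fell were less abundant and changed less, with 1 exception. MSTRG.4403.2 fell from 14066, 16233 and 3926 in the control males to 60.2, 45.1 and 141 in the mutant males, a log2 fold change of -7.03 (SE 0.69, limma adjusted p = 0.0032). The mutant males were alike and near absent, while control male 3 was well under the other controls. MSTRG.7583.1 fell by 2.48 (limma adjusted p = 0.029), MSTRG.12456.5 by 1.36 (limma adjusted p = 0.047) and MSTRG.9695.1 by 1.12 (limma adjusted p = 0.039) on the log2 scale. The calls of MSTRG.7583.1 and MSTRG.9695.1 were lost without any library other than mutant male 2 (adjusted p between 0.058 and 0.12), and that of MSTRG.12456.5 without any 1 of the 6 (adjusted p between 0.062 and 0.15). Transcripts of a locus share reads, which StringTie divides among them. Of the 2003 loci with a tested transcript, 240 had a riser and no faller, 165 had a faller and no riser, and 33 had both, and the most transcripts called at 1 locus was 11.

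TE insertions took a larger share of the normalized counts in the mutant males. The share was 0.915%, 1.16% and 0.574% in control males 1, 2 and 3 and 4.52%, 5.95% and 2.57% in mutant males 1, 2 and 3. The groups did not overlap, and the exact two-sided permutation test gave p = 0.1, the smallest p that 3 libraries against 3 allow. *copia* alone made up 0.202% to 0.331% of the counts in the control males and 1.63% to 4.11% in the mutant males (exact permutation p = 0.1). The share of known transcripts was between 90.4% and 92.9% in the control males and between 82.4% and 89.9% in the mutant males (exact permutation p = 0.1), and mutant male 2 was the lowest. The share of assembled transcripts overlapped between the groups (exact permutation p = 0.4). LTR retrotransposons held 0.442% to 0.896% of the counts in control males and 2.26% to 5.25% in mutant males. DNA transposons held 0.0554% to 0.0985% and 0.0574% to 0.109%, so their share overlapped between the groups.

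Insertions of a family share sequence, and the reads of one copy can be assigned to another, so families were also tested on the sum over their insertions. Of the 150 families tested, 38 (25.3%) were called, of which 34 (22.7%) rose and 4 (2.67%) fell. The family fit pooled its estimate of spread across families, so its adjusted p cannot be set beside those of single insertions. RR51475, RR51001 and DM88, each a single row, were called as families (limma adjusted p = 0.00026, 0.0062 and 0.019) and not as insertions. The number of families that fell was 8 without mutant male 2, 7 without control male 3 and 1 without mutant male 3. A symbol without a family name, as in RR51007, stood for a family by itself. Whether such a symbol shares sequence with a named family was not tested, so the families may not all be independent. Among LTR retrotransposons 19 of 63 families rose and 3 fell, and among non-LTR retrotransposons 9 of 40 rose and 0 fell. Among DNA transposons 1 of 22 rose, *hopper2*, which was named after its values were seen, and 0 fell. The remaining 25 symbols, which were not assigned to a class, gave 5 risers and 1 faller.

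The 4 most abundant families that rose with no overlap were *copia*, *flea*, *Cr1a* and RR51007. *copia*, an LTR retrotransposon with 36 insertions in the table, summed to 301965, 226414 and 228966 in the control males and to 3191210, 3171840 and 1776890 in the mutant males. It was 10.7-fold higher, with a log2 fold change of 3.39 (SE 0.30, limma adjusted p = 9.2e-10). Mutant male 3 was the lowest of the mutant males in *copia*, and mutant male 2 did not stand apart from mutant male 1. *flea*, also an LTR retrotransposon, rose from 17591, 19337 and 16700 to 178668, 201211 and 131734, a log2 fold change of 3.23 (SE 0.33, limma adjusted p = 1.1e-08). RR51007 had a log2 fold change of 3.45 (SE 0.35, limma adjusted p = 1.1e-08). Its counts ran parallel to those of single *copia* insertions, so it may not be independent of *copia*. In mutant males 1, 2 and 3 it had 108845, 109344 and 63477, beside 127248, 127950 and 77165 for copia{}1349. Without mutant male 2 the changes of *copia*, *flea* and RR51007 were 3.25, 3.10 and 3.32.

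Single insertions of *copia* repeated the family value. Of its 33 tested insertions 28 rose, and in 30 all mutant males lay above all control males, beside 4.46% and 15% of all rows. The named insertions copia{}631, copia{}837, copia{}1349 and copia{}67 had log2 fold changes of 3.65, 2.81, 3.54 and 3.45 (limma adjusted p between 0.0016 and 0.0046). Their normalized counts were near equal within a library, for instance 137123, 125166, 127950 and 124464 in mutant male 2, so they are not independent measurements. copia{}466, singled out after its values were seen, broke this pattern. It had no read in the control males and in mutant male 3, and 155988 and 153525 in mutant males 1 and 2. It also had no read in 2 of the 3 mutant females and 108604 in mutant female 1, so single libraries carried all of its counts or none.

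*Cr1a*, a non-LTR retrotransposon with 127 insertions, rose from 6121, 12624 and 4337 in the control males to 50489, 163589 and 79582 in the mutant males, a log2 fold change of 3.65 (SE 0.43, limma adjusted p = 1.5e-07). Mutant male 2 had the highest value, and the groups did not overlap. Without mutant male 2 the change was 3.19. The single insertion Cr1a{}2297 had 21112, 112278 and 28071 in mutant males 1, 2 and 3. It held most of the family sum in mutant male 2, but not in mutant males 1 and 3. Of the 70 tested insertions, 3 rose. In females the log2 fold change of *Cr1a* was 0.81 (limma adjusted p = 0.11), and the difference between the sexes was 2.83 (SE 0.56, limma adjusted p = 0.013 for the interaction of sex and genotype). No other named family differed between the sexes at the threshold, with interaction adjusted p between 0.16 and 0.54 for *copia*, *flea*, RR51007, *HMS-Beagle*, *Max* and *17.6*. Over all rows, 310 (0.947%) passed the test of the interaction.

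**Figure D4:**
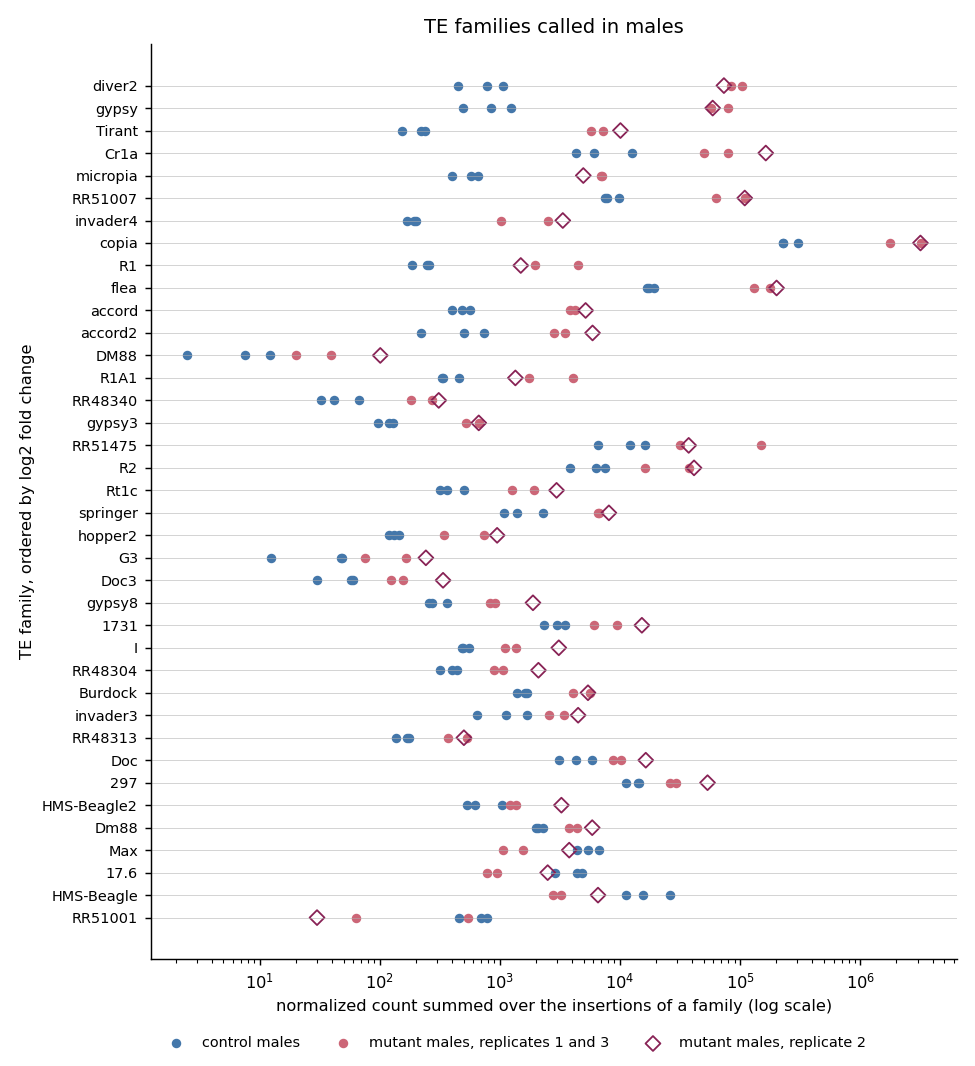
Normalized counts summed over the insertions of each TE family called in males (x axis, log scale), 1 point per male library, with families ordered by log2 fold change. The 34 families that rose are above the 4 that fell, and mutant male 2 (open diamonds) is the nearest to the controls of the mutant males in *HMS-Beagle*, *Max* and *17.6*.

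Among the other families that rose, *diver2*, *gypsy* and *Tirant* had the 3 largest log2 fold changes, from low levels in the control males. *diver2*, an LTR retrotransposon, had 787, 1057 and 449 in the control males and 104649, 73337 and 84057 in the mutant males, a log2 fold change of 6.91 (SE 0.40, limma adjusted p = 1.9e-13). Nearly all of it, 98.8% in the mutant males, came from 1 insertion, diver2{}1632, which had no read in any control male. *gypsy* rose from 840, 1234 and 495 to 79844, 59131 and 57250 (log2 fold change 6.33), and 45.7% of its sum in the mutant males came from gypsy{}615. *Tirant*, a relative of *gypsy*, rose from 153, 237 and 221 to 5750, 10091 and 7244 (log2 fold change 5.22). Of its 19 tested insertions 18 rose, beside 4.46% of all rows. These families thus differed in whether 1 insertion or most insertions carried the rise. *R1* and *R2*, which insert into the ribosomal RNA genes, rose by 3.37 and 2.37 on the log2 scale, in libraries from which ribosomal RNA had been removed. *I*, *Doc*, *Burdock*, *springer*, *1731* and *297* rose by between 1.39 and 2.23 on the log2 scale.

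The families that fell with no overlap were the LTR retrotransposons *HMS-Beagle*, *Max* and *17.6*. *HMS-Beagle* fell from 15615, 25854 and 11253 to 3226, 6566 and 2745, a log2 fold change of -2.10 (SE 0.42, limma adjusted p = 0.00032). *Max* fell from 5437, 6684 and 4403 to 1558, 3781 and 1063, a log2 fold change of -1.56 (SE 0.45, limma adjusted p = 0.0095). *17.6* fell from 4394, 4870 and 2901 to 953, 2503 and 775, a log2 fold change of -1.69 (SE 0.46, limma adjusted p = 0.0066). In each, mutant male 2 was the nearest to the control males, and without it the changes were -2.48, -2.08 and -2.20. *Max* and *17.6* did not pass the threshold without mutant male 3 (adjusted p = 0.092 and 0.067). The fourth faller, RR51001, overlapped between the groups, with 541, 30.1 and 63.6 in the mutant males and between 459 and 788 in the control males.

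Of the 13 tested insertions of *HMS-Beagle* 8 fell, and in 11 all mutant males lay below all control males, beside 5.82% and 21% of all rows. HMS-Beagle{}347, HMS-Beagle{}26 and HMS-Beagle{}116 had log2 fold changes of -2.16, -2.06 and -2.07, and jockey{}838, an insertion of a non-LTR retrotransposon, had one of -1.07 (limma adjusted p between 0.040 and 0.045). All 4 lost the call without any library other than mutant male 2 (limma adjusted p between 0.076 and 0.13). The *HMS-Beagle* family kept its call in the separate fit of families. *mdg3*, which did not pass the test as a family (log2 fold change 0.39, limma adjusted p = 0.65), was singled out after its values were seen. Its insertion mdg3{}1683 had between 11594 and 15587 in the control males, 4035 and 5642 in mutant males 1 and 2 and 94136 in mutant male 3. Among the male libraries it was thus high in mutant male 3 alone. The *mdg3* family summed to 8342, 87192 and 75212 in mutant females 1, 2 and 3 and to between 12316 and 26248 in the control females.

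Mutant male 2 was described apart from mutant males 1 and 3, with no test, since 1 library is not a group. It was more than 1 log2 unit above both others in 17.3% of the rows, where mutant male 1 was so in 5.36% and mutant male 3 in 6.58%. Among TE insertions the shares were 21.8% for mutant male 2 and 1.54% and 1.44% for the others. Mutant male 2 was the highest of the 6 male libraries in 52.0% of the TE insertions, and control male 2 in 21.7%. Over all rows control male 2 was the highest of the 6 most often, in 24.1%, and mutant male 2 in 17.6%. More than 1 log2 unit below both other mutant males, mutant male 2 was less often found, in 7.59% of the rows against 10.2% and 11.4%. Mutant male 2 lay nearer to the control male mean than to the mean of the other mutant males in 46.1% of the rows, and mutant males 1 and 3 did so in 35.1% and 33.9%. Spearman's rho across transcripts, which are not independent, was 0.86 between mutant males 1 and 3, 0.83 between mutant male 2 and each of them, and between 0.85 and 0.88 among the control males.

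**Figure D5:**
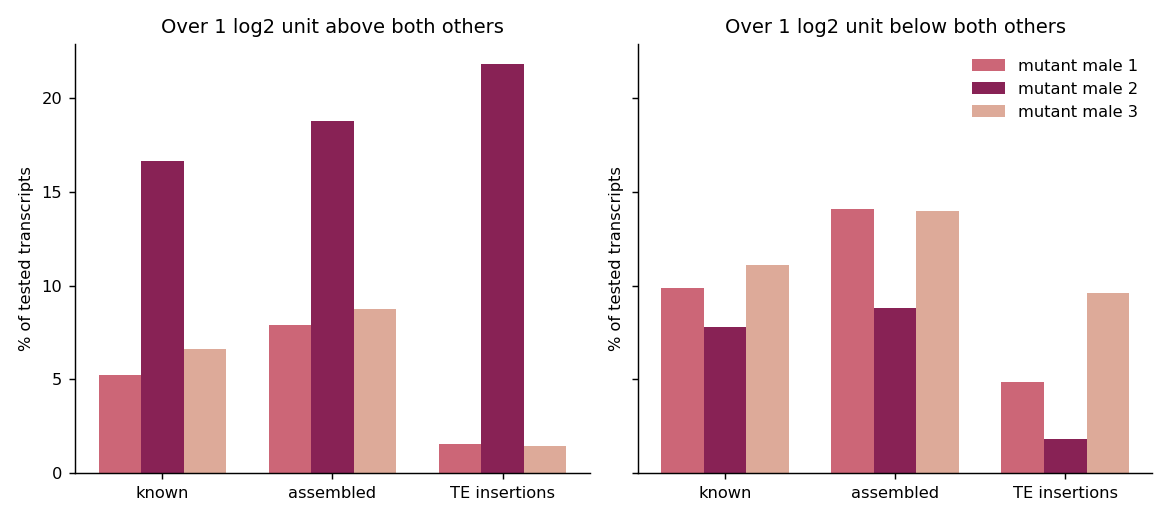
Percent of the tested rows of each class in which a mutant male library was more than 1 log2 unit above (left) or below (right) both other mutant male libraries. Mutant male 2 is above both others in 16.7% of known transcripts, 18.8% of assembled transcripts and 21.8% of TE insertions.

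On the rows called without it, mutant male 2 mostly moved the same way. Of the 1360 risers called from mutant males 1 and 3 alone, mutant male 2 was above all control males in 1300 (95.6%), with a median log2 ratio to the control mean of 3.50 against 3.76 and 3.60 in mutant males 1 and 3. Of the 3510 fallers it was below all control males in 3135 (89.3%), with a median of -1.62 against -3.73 and -4.01. With values under 3 reads set to 3 reads, the medians of the fallers were -1.63, -3.55 and -3.67. These rows were chosen for being far from the same control males in mutant males 1 and 3, so the medians of those libraries are a description. Over all 32740 rows mutant male 2 was above all control males in 31.0% and below them in 35.05%. For TE insertions mutant male 2 was above all control males in all 155 risers called without it, with a median log2 ratio of 3.79 beside 3.76 and 3.15. Of the fallers, 867 (24.7%) were male-limited transcripts, for which mutant male 2 was described above.

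The rows in which mutant male 2 lay furthest from the others, where those differed from each other by less than 1 on the log2 scale, had no read, or in FBtr0308065 next to none, on one side. MSTRG.3664.10 had 0, 37408 and 0 in mutant males 1, 2 and 3 and between 180 and 2554 in the control males. MSTRG.2557.13 had 0, 3720 and 0 beside 1565 to 3394 in the control males, so mutant male 2 was like the controls there. MSTRG.8634.6 and MSTRG.5251.2 were likewise at 0 in mutant males 1 and 3, with 4164 and 5059 in mutant male 2. In the other direction, FBtr0335166 had 7748, 0 and 12445 in the mutant males, FBtr0308065 had 17227, 1.67 and 10387, FBtr0088745 had 2323, 0 and 2531, and MSTRG.9337.7 had 2057, 0 and 1953. None of these 8 rows passed the test in the 6 libraries.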

How the data were processed

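RNA-seq of whole larvae was analyzed for 3 control male and 3 mutant male libraries. The 6 female libraries entered only where stated. Groups and replicate numbers came from the labels. Per the submitters' processing notes and the study's methods, ribosomal RNA was removed and paired ends of 150 bp were trimmed with Trimmomatic 0.39, mapped with HISAT2 2.2.1 to BDGP6 and quantified with StringTie 2.1.5, which also assembled transcripts. The authors deposited a signal, namely counts per transcript divided by a DESeq2 (1.32.0) size factor. Use of strand is not given in the sources used here. Undoing the division gave whole reads (within 0.01) for 100% of values up to 1000 reads. Up to 3 reads counted as the detection limit, which covers counting error only.

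The main test was limma 3.58.1 (R 4.3.3) with an intensity trend on log2(normalized count + 1) over the 6 male libraries, without a block. Males spread more between replicates than control females, so females stayed out of that fit, and the interaction of sex and genotype used all 12 libraries. edgeR 4.0.16 and DESeq2 1.42.0 on the recovered reads, other filters, scalings and pseudocounts, library weights and each library left out were alternatives. One value per library was compared by an exact permutation test. Named transcripts were, in each class, the 4 most abundant risers and fallers with no overlap between the groups, families likewise, and the 4 rows with mutant male 2 furthest above and below the other mutant males. The members, lists and tests were chosen with earlier results of these data known.

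On simulated counts for this comparison (32740 rows), limma recovered 148 of 200 rows changed by 5 to 8 on the log2 scale with 12 false calls, 3 of 200 changed by 1 to 4 with 0, and 4162 of 6000 changed by 2 to 5 with 152. Without changes limma and edgeR made 0 calls and DESeq2 made 209. DESeq2 recovered 190 of the 200 rows changed by 5 to 8 with 321 false calls. It recovered 92 of the 200 changed by 1 to 4 with 243. Changes were placed only in rows with a mean of at least 100, so recovery of scarcer rows was not measured. Identifiers of 27 known transcripts matched RefSeq synonyms. Positions and sequences were not used here.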

Additional observations from a re-analysis of the deposited data

Results flagged for a closer look

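The TE family *Cr1a* and the single insertion RR48344 differed between the sexes. The log2 fold change of *Cr1a* was 3.65 in males and 0.81 in females, a difference of 2.83 (SE 0.56, limma adjusted p = 0.013 for the interaction of sex and genotype in all 12 libraries). All 3 mutant males lay above all 3 control males. RR48344 had a log2 fold change of 1.21 in males (limma adjusted p = 0.25) and of -3.06 in females (limma adjusted p = 0.0018), a difference of 4.27 (SE 0.96, limma adjusted p = 0.027). Its male groups overlapped, with 309, 44.6 and 26.3 in the control males and 163, 211 and 137 in the mutant males. No other of the 150 tested families passed this test. For these flags, groups of 3 libraries were not searched for single outlying values. Elsewhere, rows were ranked by the gap of mutant male 2, and copia{}466 and *mdg3* were picked after their values were seen.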

How the results depend on the processing

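The number of known transcripts called, 2459, was 5179 with DESeq2 and 1177 with edgeR on the recovered reads, 4533 with all 12 libraries in one fit, 4675 with limma library weights, which count a library that stands apart less, 1405 with the replicate number as a block, 1102 with only rows alike in the control sexes (added after seeing the data), and between 608 and 3885 with 1 library left out. Assembled transcripts, 684, came to 274 with at least 10 in every male library, 444 with only rows alike in the control sexes, and between 435 and 769 with 1 library left out. TE insertions, 225, came to 443 with DESeq2, 146 with edgeR, 470 with all 12 libraries, 137 with the replicate block, and between 97 and 216 with 1 library left out. TE families, 38, came to 62 with library weights, which gave mutant male 2 a weight of 0.24, and 18 of these fell. Same-numbered libraries of the 2 groups had correlations of their deviations of -0.0018, 0.20 and 0.078 for numbers 1, 2 and 3. The 0.20 of number 2 was the largest of all pairs, while mutant male 1 was closest to control male 3 (0.089). With 3 libraries a group, these values cannot decide whether the numbers pair the samples. With the block jockey{}838 alone of the named results lost its call. For the 31 named transcripts and families, 541 values were computed: 459 kept direction and call, 82 kept direction and lost the call, and 0 changed direction. The 9 calls lost with edgeR (adjusted p between 0.052 and 0.072) and those lost with 1 library left out were of fallers, apart from FBtr0082101 and FBtr0072881. The cause of these shifts was not tested. Depth limits single libraries to about 3 reads, and 3 libraries a group limit the test.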
